A study of Mus musculus with 8 samples.

Results

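FGFR1 is a receptor for fibroblast growth factors that spans the cell membrane, and a nuclear form of it (nFGFR1) is found on chromatin. Its binding was mapped by ChIP-seq. Chromatin is fixed and sheared, an antibody pulls down the protein with its DNA, and a peak is a stretch of the genome with more sequenced fragments than its surroundings. The members described here are the peaks of the 3 FGFR1 libraries, 71597 of the 176687 peaks listed in 8 libraries. Of these, 11378 came from the LIF library, 46137 from RA replicate 1 and 14082 from RA replicate 2, which the submitters titled as a second experiment. All libraries were made from E14Tg2a, a line of mouse embryonic stem cells, used at passages 37 to 40 with several plates pooled, and all 3 used the same FGFR1 antibody. The LIF group was made of pluripotent embryonic stem cells (ESCs) kept in leukemia inhibitory factor, with 1 FGFR1 library. The RA group was made of LIF-free monolayers of the same line given 1 µM retinoic acid for 48 h, which the submitters call neuronal cells (NCs), with 2 FGFR1 libraries. The other 5 lists hold the nuclear receptors RXR and Nur77 in both states and the histone variant H3.3 in RA.

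Leukemia inhibitory factor holds mouse ESCs in self-renewal through Stat3, and retinoic acid acts through retinoic acid receptors paired with RXR to start differentiation and to switch on Hox genes. Nuclear FGFR1 has no known DNA-binding domain of its own and is thought to reach chromatin with partners such as CBP, the coactivator of CREB, and the kinase RSK1. Promoters of genes that most cells use are usually rich in CpG and carry sites for NRF1, ETS factors, YY1 and CREB close to the transcript start.

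Peak lists hold no expression, so the labelled cell state could not be checked by the level of marker genes. Among the stem cell genes, Pou5f1 and Nanog had no listed promoter peak of FGFR1 in either state. Sox2, Klf4 and Esrrb had one in both RA lists and none in LIF, and Zfp42 had one in RA replicate 2 only. Among genes of neural cells, Nes and Tubb3 had a peak in both RA lists, Pax6 in RA replicate 1 only, and Map2 in none.

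The libraries differed in depth and in kind of peak. The background recovered from the deposited values was 2.71 fragments per kb in LIF, 4.16 in RA replicate 1 and 6.78 in RA replicate 2, so the LIF library was the shallowest. The median peak rested on 11, 10 and 27 fragments at its summit and was 140, 89 and 311 bp wide. Peaks that covered a run of at least 20 bp in which purines and pyrimidines alternate (called a tract below) made up 51.7% of the LIF list, 21.1% of RA replicate 1 and 1.26% of RA replicate 2. The cell state and the depth of a library cannot be told apart with 1 LIF library, so LIF and RA were compared without a test. The spread between the 2 RA libraries was the only replicate spread, and it may be technical. A promoter without a listed peak is not shown to be unbound, since the lists hold only peaks with a −log10 p of at least 5.01.

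Protein-coding genes were classed by their promoters, taken as 1000 bp to either side of any transcript start, with a peak counted where it covered at least 20 bp. A kept gene had a peak in all 3 lists, a gained gene in both RA lists and not in LIF, and a lost gene in LIF and in neither RA list. The sequences that follow show the 3 kinds of place. They are on the strand of the gene, 5′ to 3′, from the mouse build mm10. For kept and gained genes they come from the strongest gene of the class with a given word within 50 bp of the RA replicate 2 summit, and the capitals mark that word. In the kept genes the words are the element CTCGCGAG (Ccnb1, cyclin B1, chr13:100786674-100786733, minus strand), that of YY1 (Abce1, a ribosome recycling factor, chr8:79711629-79711658, minus strand) and the CREB site or CRE (Btaf1, a regulator of TBP, chr19:36926059-36926088, plus strand).
Ccnb1: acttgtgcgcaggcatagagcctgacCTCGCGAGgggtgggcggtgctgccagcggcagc
Abce1: ggctgtgcaccGCCATCTTtgccggtggcg
Btaf1: aaacgtgccggTGACGTCActtccggcgtg

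The middle of the Ccnb1 and Btaf1 stretches lies outside annotated genes, upstream of the start, and that of Abce1 lies in its 5′ UTR. In the gained genes the words are the CRE (Clptm1l, chr13:73603915-73603974, plus strand), NRF1 (Ankrd26, chr6:118562234-118562293, minus strand) and YY1 (Ndufa6, a subunit of respiratory complex I, chr15:82354213-82354242, minus strand). The first pair lie upstream of the start and the Ndufa6 stretch in its first coding exon.
Clptm1l: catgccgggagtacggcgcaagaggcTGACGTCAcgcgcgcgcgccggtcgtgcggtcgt
Ankrd26: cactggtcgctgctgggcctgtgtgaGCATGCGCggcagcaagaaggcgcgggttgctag
Ndufa6: gcttcctcggcAAGATGGCggccgcggcca

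In the lost genes the capital marks the summit where no tract was present (Slit1, an axon guidance ligand, chr19:41743262-41743321, minus strand, in a coding exon, and Adprhl1, chr8:13254329-13254388, minus strand, upstream) or the part of the tract inside the LIF peak where there was one (Amer2, chr14:60372300-60372359, plus strand, and Sit1, chr4:43484682-43484741, minus strand, both upstream).
Slit1: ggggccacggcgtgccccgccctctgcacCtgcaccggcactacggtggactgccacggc
Adprhl1: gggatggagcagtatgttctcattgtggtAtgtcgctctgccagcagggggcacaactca
Amer2: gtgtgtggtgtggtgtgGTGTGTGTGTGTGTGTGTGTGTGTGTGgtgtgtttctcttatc
Sit1: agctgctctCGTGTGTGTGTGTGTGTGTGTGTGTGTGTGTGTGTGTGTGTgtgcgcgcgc

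The words of the kept and gained genes lie between -134 and 9 bp from the start, whereas the marked parts of the tracts of Amer2 and Sit1 lie close to the upstream edge of the promoter window, at -929 and -978 bp from the start.

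The first question was how much of the LIF list was found again after RA. Of the 11378 LIF peaks, 59.0% (95% interval 58.1 to 59.9) overlapped a peak of RA replicate 1 by at least 1 bp and 27.5% (26.7 to 28.3) a peak of RA replicate 2. Both RA lists held 23.4% of them, and 36.9% were in neither. Intervals are exact Clopper-Pearson and cover counting error only. The gap between the RA libraries was far wider than these intervals, so the share of LIF peaks found after RA depended on the RA library.

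That gap differed by place and sequence. Of the 3825 LIF peaks in promoters, 79.0% were in RA replicate 1 and 75% in RA replicate 2. Of the 7553 outside promoters, 48.9% were in RA replicate 1 and 3.50% in RA replicate 2. Among promoter peaks without a tract the RA libraries were nearly level, at 81.3% and 82.2%, and 70.7% (69.1 to 72.2) of the 3451 peaks were in both. Tract peaks outside promoters numbered 5511 and were found in 50.8% of cases in RA replicate 1 and in 0.435% in RA replicate 2. Non-promoter peaks without a tract fell between these, at 43.6% and 11.8%.

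**Figure D1:**
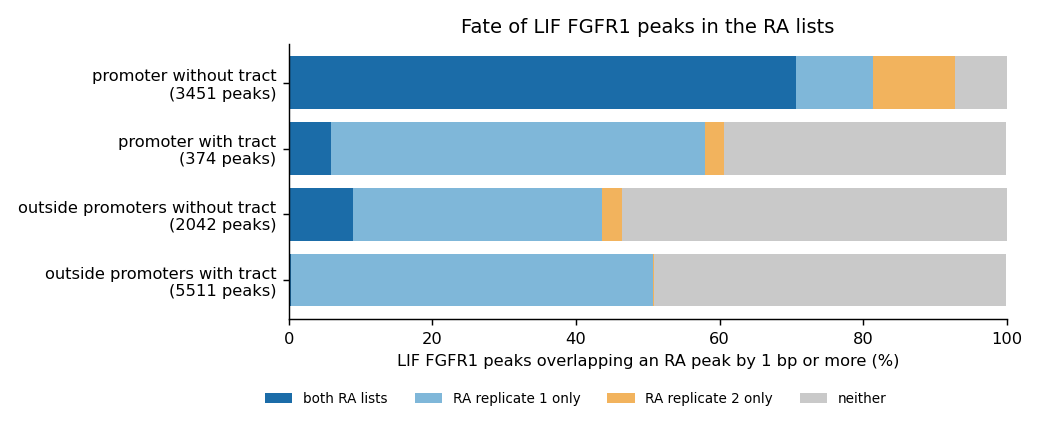
Share of LIF FGFR1 peaks (x axis, %) found in both RA lists, in 1 of them or in neither, for 4 kinds of LIF peak (bars, with the number of peaks). Promoter peaks without a tract were found in both lists in 70.7% of cases, and tract peaks outside promoters were split between RA replicate 1 only and neither.

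The same tract peaks were also listed for other proteins. Of the 5511 tract peaks of FGFR1 in LIF outside promoters, 48.4% overlapped an RXR peak and 49% a Nur77 peak in LIF. In RA, 56.5% overlapped a Nur77 peak, 41.9% an RXR peak and 34.9% an H3.3 peak. These shares stand beside 50.8% for FGFR1 in RA replicate 1 and 0.435% in RA replicate 2, so at such places the first FGFR1 list from RA was within the range of the other antibodies and the second far below it. For promoter peaks without a tract, the FGFR1 lists in RA held 81.3% and 82.2%, against 67.6% for RXR in LIF, 42.8% for Nur77 in LIF and 28.4% for H3.3 in RA. What tract peaks are was not tested.

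LIF peaks by their later fate differed in strength in an uneven way. The 4050 LIF peaks found in RA replicate 1 only had the highest median −log10 p, 14.9 (quartiles 10.8 and 24.6), and 73.5% of them had a tract. The 2663 found in both RA lists had a median of 10.9, and 1.58% had a tract. The 4197 found in neither had a median of 11.6, with 68.0% on a tract. A LIF peak found again in both RA lists was therefore no stronger in LIF than one found in neither. The median GC content of the peak was 68.8% in the first of these groups and 49.1% in the second.

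In the other direction, most RA peaks had no LIF counterpart. A LIF peak overlapped 15.0% of the peaks of RA replicate 1 and 21.5% of those of RA replicate 2. Among the 8229 peaks of RA replicate 2 that RA replicate 1 also held, 33.1% (32.1 to 34.2) had a LIF peak.

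The second question was which genes kept, gained or lost FGFR1 at the promoter. Of 21951 protein-coding genes, the LIF list held a promoter peak for 3731, RA replicate 1 for 11138 and RA replicate 2 for 10894, so the RA libraries were close to each other at the level of genes. Kept genes numbered 3226 (14.7% of all genes), gained genes 5438 (24.8%) and lost genes 67 (0.305%). A further 264 genes had a peak in LIF and RA replicate 1 only and 174 in LIF and RA replicate 2 only. Those in 1 RA list alone numbered 2210 and 2056, and 8516 had no listed peak. Of the LIF genes 86.5% (85.3 to 87.5) were kept, 93.5% were bound in RA replicate 1 and 91.1% in RA replicate 2. Among the 18220 genes without a LIF peak, 29.8% (29.2 to 30.5) were gained.

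These counts depend on how deep each list goes. When each list was cut to its strongest 11378 peaks, 1882 genes were kept, 1617 gained and 325 lost. Gained genes still outnumbered lost ones under that limit, and kept genes then outnumbered gained ones. Without RA replicate 1 the lost genes numbered 331, and without RA replicate 2 they numbered 241, so most genes missing from 1 RA list were in the other. Genes also share peaks: the 3226 kept genes rested on 2801 LIF peaks, since neighbouring starts use the same window.

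At most kept genes the promoter peaks of the 3 libraries overlapped. Any LIF promoter peak overlapped any promoter peak of RA replicate 1 at 89.1% of kept genes, and any of RA replicate 2 at 90.4%. Overlap with both RA lists was found at 82.7%. The summits of the strongest peaks lay a median of 57 bp and 64 bp apart. They were within 100 bp of each other at 64.5% and 62.8% of kept genes. Promoter peaks of the RA replicates overlapped each other at 94.2% of kept genes and at 82.4% of gained genes. Their strongest summits were a median of 76.5 bp apart at kept genes and 116 bp at gained genes.

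Kept genes had stronger RA peaks than gained genes in both RA libraries. In RA replicate 1 the median −log10 p was 16.4 (quartiles 12.6 and 21.8) at kept genes and 12.7 (10.4 and 16.0) at gained genes. In RA replicate 2 it was 36.0 (24.6 and 52.6) and 23.4 (15.4 and 34.7). The median fold, the fragment pileup at the summit over the background of the same library, was 9.49 against 7.88 in replicate 1 and 11.6 against 9.26 in replicate 2. The quartile ranges of the 2 classes overlapped in each library, so strength alone did not separate them. Lost genes were close to kept genes in LIF, with a median −log10 p of 10.3 against 10.7. Their median fold was 6.88 against 7.02. These medians include tract peaks, which 38.8% of lost and 3.78% of kept genes had. The highest −log10 p of a lost gene was 39.8 with a tract (Amer2) and 14.3 without one (Slit1). Lost and kept genes were not compared in strength with tract peaks left out. Values were compared within a list only, as lists differ in depth.

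**Figure D2:**
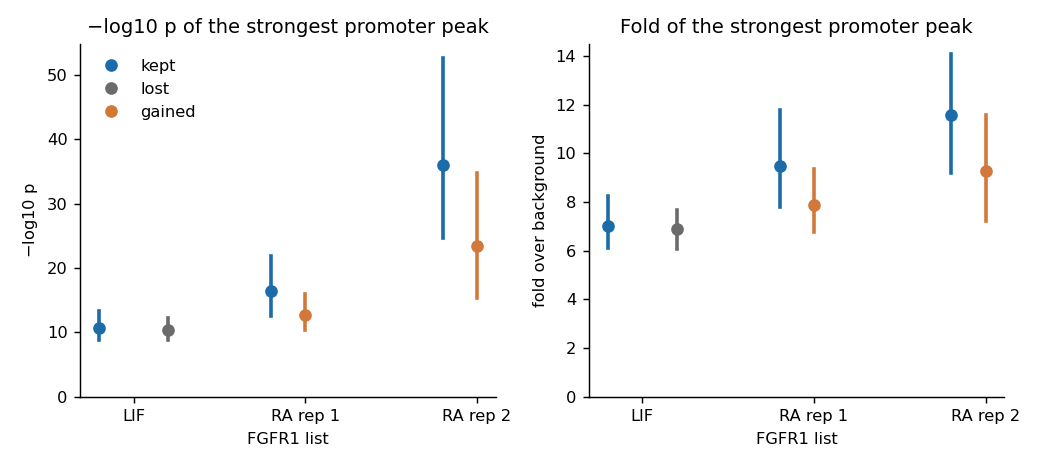
The −log10 p (left) and fold over background (right) of the strongest promoter peak of each gene, by FGFR1 list (x axis) and gene class. Points are medians and lines run from the lower to the upper quartile. In both RA lists kept genes lie above gained genes. In LIF the medians of kept and lost genes are close, with tract peaks included (3.78% of kept and 38.8% of lost genes).

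The share of genes with a LIF peak was higher at each step of RA peak strength. The 8664 genes bound in both RA lists were ranked by −log10 p in RA replicate 1 and split into 5 equal groups. From the weakest group to the strongest, 20.9%, 25.5%, 33.0%, 43.5% and 63.3% had a LIF peak. Ranked by RA replicate 2, the shares were 17.6%, 24.9%, 35.5%, 46.2% and 62.0%. The ranking by either RA library gave the same order. Gained genes thus made up most of the 4 weaker groups, and the part of the lower LIF depth in this was not tested.

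**Figure D3:**
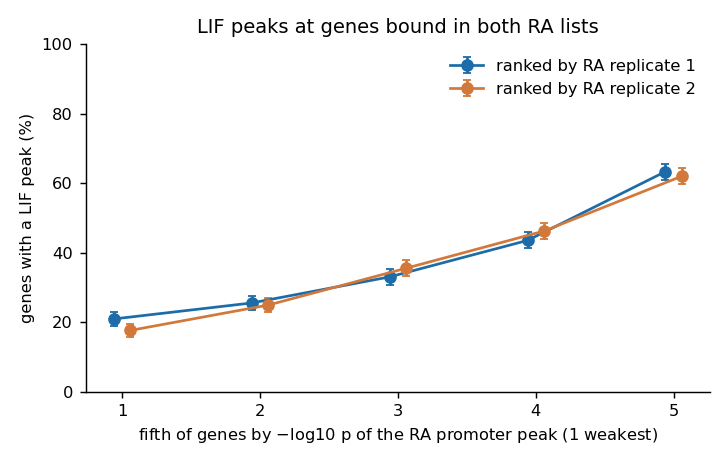
Share of genes with a LIF peak (y axis, %) among genes bound in both RA lists, by group of the −log10 p of the RA promoter peak (x axis, 1 weakest of 5). Points are shares and bars exact 95% intervals. The shares rise from 20.9% to 63.3% in the ranking by RA replicate 1 and from 17.6% to 62.0% in that by RA replicate 2.

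LIF genes whose peak held a tract behaved differently from the rest. Of the 242 LIF genes with a tract peak, 50.4% were kept and 10.7% lost. Of the 3489 without one, 89.0% were kept and 1.18% lost. Across 5 groups of LIF strength, from weakest to strongest, the kept share went from 81.5% to 89.7%. The share with a tract peak went from 2.68% to 15.5% over the same groups. Kept shares by strength were not taken apart for genes with and without a tract.

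FGFR1 lay near the transcript start at most kept and gained genes and less often at lost ones. In LIF the summit lay within 100 bp of the nearest start at 59.6% (57.9 to 61.3) of kept genes and at 21 of 67 lost genes, or 31.3% (20.6 to 43.8). Beyond 500 bp lay 6.66% of the kept and 40.3% of the lost summits. Tract peaks are included here. Lost minus kept, the LIF share within 100 bp was -28.3 percentage points, and -16.5 with tract peaks left out. The gap was also smaller with a window of 500 bp (-17.3), the outermost start only (-18.3) or no RA replicate 2 (-13.8). It was larger with a −log10 p of at least 10 (-34.2), equal numbers of peaks (-33.2) or no RA replicate 1 (-32.7). In RA replicate 1 the share within 100 bp was 61.1% at kept and 54.1% at gained genes, and in RA replicate 2 it was 68.0% and 65.5%. It was 36.9% at genes in RA replicate 1 only, and at genes in LIF and RA replicate 1 only it was 25% in LIF and 31.1% in RA replicate 1. Kept genes were thus higher than gained genes in both, by 4.73 ± 3.21 percentage points (SD, n = 2 libraries). Without RA replicate 1 the gap was 1.46 and without RA replicate 2 it was 9.70, the classes being drawn again from the lists that remained. At kept and gained genes the median summit lay between 2 and 8 bp downstream of the start in the RA lists. In RA replicate 1 it lay at 68 bp for genes in that list only and at 55 bp for genes in LIF and that list only.

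**Figure D4:**
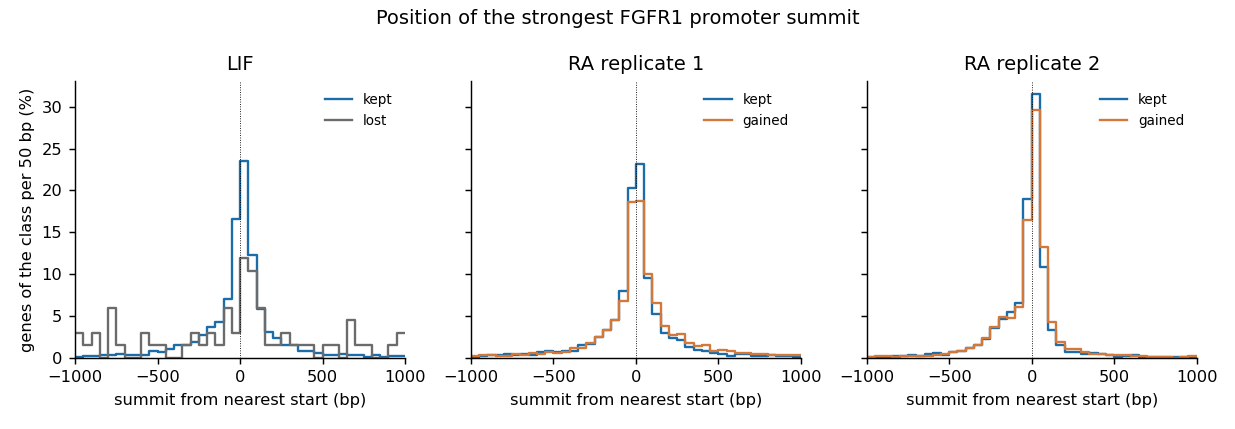
Genes of each class (y axis, % per 50 bp) by the distance of the strongest FGFR1 summit from the nearest start (x axis, bp, negative upstream), in LIF and in the RA lists. Kept and gained genes peak at the start, with 59.6% of kept LIF summits within 100 bp. Lost genes, 38.8% of them with a tract peak, are spread over the window. Summits beyond 1000 bp are not drawn.

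Of the kept genes, those with the highest lowest −log10 p over the 3 lists were chosen for naming. Hist1h1c, a linker histone H1 gene, had a −log10 p of 74.4 in LIF, 83.6 in RA replicate 1 and 139 in RA replicate 2. Hist4h4, a histone H4 gene, had 48.4, 66.4 and 194. Gtf3c6, a subunit of the RNA polymerase III factor TFIIIC, had 74.2, 47.8 and 44.9, with summits at -471, -474 and -479 bp. The histone peaks lay within the gene, with summits of Hist1h1c at 812, 824 and 833 bp after the start. Of the other 3 of these 6, mt-Nd4 is on the mitochondrial genome, where its fold was 19.6, 18.3 and 2.83. Gm10800, a predicted gene, and Sfi1, a centrin-binding protein, had peaks of 545 to 1175 bp. Both carried a peak in all 5 lists of the other proteins, as did Hist4h4. In RA replicate 2 the peaks of Hist4h4 and Hist1h1c were 608 and 1294 bp wide.

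Of the gained genes, the 6 with the highest lowest −log10 p over the RA lists were Ndufa6, Rapgef6, Clptm1l, Fam117a, Ankrd26 and Cyp26a1. None had a listed LIF peak, although their RA peaks were among the strongest. Ndufa6 had a −log10 p of 47.5 and 47.2 in RA replicates 1 and 2, and Rapgef6, an exchange factor for Rap GTPases, had 43.1 and 87.6. Cyp26a1, the enzyme that breaks down retinoic acid, had 37.8 and 66.8, at a fold of 15.1 and 10.8 and with summits 112 and 98 bp after the start. It is the only one of the 6 in the retinoid list described below. Clptm1l had 41.5 and 44.7, Fam117a 40.6 and 40.3, and Ankrd26 37.9 and 48.8. The summits of the other 5 all lay within 100 bp of the start in both RA lists.

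Lost genes without a tract numbered 41 and were led by Slit1, with a LIF −log10 p of 14.3. Luzp2 and 4930469K13Rik had 13.3 each, Mki67, a marker of dividing cells, 12, and Adprhl1 and Prps2 11.8 each. With a tract there were 26, led by Amer2 at 39.8, Sit1 at 32.9 and the olfactory receptor gene Olfr768 at 28.5. Ifi44l had 25, and the olfactory receptor genes Olfr702 and Olfr406 had 19.9 and 16.6. Ppfia2, also on a tract, had the same value as Olfr406. The strongest lost peaks were therefore those on tracts, and 38.8% of lost genes had one against 3.78% of kept genes.

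Peaks of the other proteins were listed more often at kept than at gained or lost promoters. A promoter peak of RXR in LIF was present at 87.9% (86.7 to 89.0) of kept genes, 70.8% (69.6 to 72.0) of gained genes, 31.3% of lost genes and 42.5% of all genes. Nur77 in LIF was at 63.8%, 38.9%, 23.9% and 25.5% of these groups. In RA, RXR was at 58.2%, 36.3%, 16.4% and 23.3%, Nur77 at 62.2%, 39.6%, 26.9% and 25.8%, and H3.3 at 41.7%, 24.1%, 2.99% and 15.5%. Each of the 5 lists put kept above gained genes, and the 2 intervals did not overlap in any of them. Genes in LIF and RA replicate 1 only exceeded kept genes for Nur77 in RA, at 66.3%, and for H3.3 in RA, at 47.7%. RXR was already listed in LIF at most genes that had an FGFR1 peak only after RA. The RXR library from LIF also had the highest inferred background of the 8, 7.09 fragments per kb, and its part in this share was not tested.

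Promoter sequence, which the classes did not use, followed the same order. In the 300 bases from 250 before to 50 after the outermost start, the median ratio of observed to expected CpG was 0.818 at kept, 0.753 at gained and 0.389 at lost genes, against 0.525 over all genes. The ratio was at least 0.6 at 80.3%, 72.0% and 31.3% of these classes and at 44.4% of all genes. A start of another gene on the opposite strand within 1000 bp was present at 34.7% of kept, 28.4% of gained, 11.9% of lost and 18.3% of all genes. Kept promoters thus had the highest CpG ratio of the 8 classes and were the most often divergent.

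Words for 9 sites were searched on both strands of these 300 bases, and none of the words contains another. The NRF1 word GCGCATGC was in 8.31% (7.38 to 9.31) of kept, 5.42% (4.84 to 6.06) of gained and 3.70% of all promoters. The CRE word TGACGTCA was in 5.08% (4.35 to 5.90) of kept, 3.27% (2.82 to 3.78) of gained and 2.43% of all. The element CTCGCGAG was in 3.19% (2.61 to 3.86), 1.95% (1.60 to 2.35) and 1.21%. For these 3 words the intervals of kept and gained genes did not overlap. They did overlap for the ETS word CCGGAAGT (9.39%, 8.16% and 4.69% of all), the YY1 word AAGATGGC (5.33%, 4.45% and 2.92%), the SP word GGGGCGGGG (21.5%, 22.3% and 14.5%), the E-box CACGTG (11.9%, 10.4% and 7.75%) and the CCAAT box CCAATCA (10.6% in both classes and 9.11%). The nuclear receptor core AGGTCA was less frequent in kept and gained promoters, at 11.9% and 12%, than in all, at 14.8%. CpG ratio moves with the classes, and its part in these shares was not tested.

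Around the summit itself the order was less even. In 100 bp centred on the RA replicate 1 summit the NRF1 word was in 6.14% of kept and 4.10% of gained genes, and the CRE word in 3.10% and 1.84%. In RA replicate 2, whose peaks are wider, the NRF1 word was in 2.79% and 2.24% and the CRE word in 1.49% and 0.919%, with overlapping intervals for both words. Windows of the same length on the outermost start of all genes held them in 1.77% and 1.35% of cases. Over both classes and RA lists the SP word was in 3.25% to 4.71%, against 7.1% in those windows. The CCAAT box was in 0.837% to 1.29% against 2.88%, and AGGTCA in 2.82% to 3.7% against 4.42%. Above those windows lay the YY1 word (1.86% to 4.03% against 1.7%) and the E-box (3.53% to 7.13% against 3.34%). The intervals overlapped those of the windows for the YY1 word at gained genes in RA replicate 1. For the E-box they did so at both classes in RA replicate 2, and for AGGTCA at both classes in RA replicate 1. The ETS word and CTCGCGAG lay on either side.

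Gene lists were then described by class, each beside the background of 14.7% kept, 24.8% gained and 0.305% lost. These lists were chosen with earlier results known, and counts are given with no test. Kept shares ran from 0 to 58.1%. Of the 30 lists, 14 had a kept share above that of all genes.

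**Figure D5:**
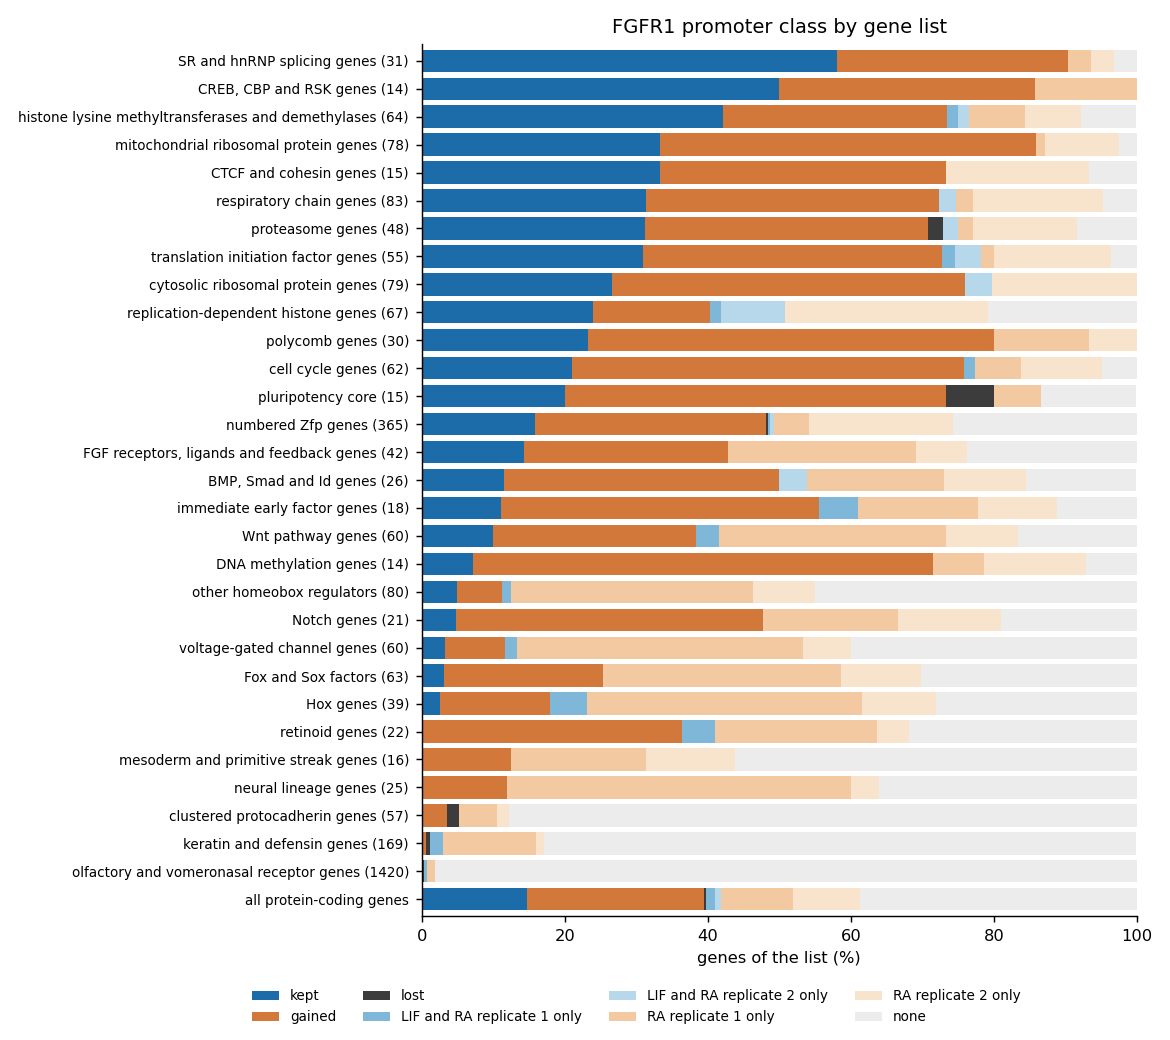
Share of the genes of each list (x axis, %, list size in brackets) in the 8 classes of FGFR1 promoter binding. Splicing genes have 58.1% kept and the 5 lists for translation, energy supply and protein turnover 26.6% to 33.3%. The retinoid, mesoderm, neural, olfactory and vomeronasal receptor, keratin and defensin, and clustered protocadherin lists have 0. The share over all protein-coding genes, at the bottom, is 14.7%.

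RNA processing genes had the highest kept share. Of 31 SR and hnRNP genes, which encode splicing factors and RNA packaging proteins, 18 were kept (58.1%) and 10 gained. Srsf7 had a −log10 p of 30.9 in LIF, 61.4 in RA replicate 1 and 251 in RA replicate 2. No kept gene had a higher RA replicate 2 value, and Ttc39d had the same one. Hnrnpab had 23.7, 32.5 and 161, and Srsf2 had 18.5, 48.9 and 162. All 3 had their summits within 100 bp of the start in every list. Srsf1, Srsf3, Srsf10 and Hnrnpf were gained, with a −log10 p of 16.2 to 25.6 in RA replicate 1.

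Among the proteins that nFGFR1 is thought to act with, 7 of 14 CREB, CBP and RSK genes were kept and 5 gained, and the other 2 had a peak in RA replicate 1 only. Creb1, which binds the CRE, had a −log10 p of 14.3, 27.8 and 52.9 in LIF and RA replicates 1 and 2. Crebbp, which encodes CBP, had 9.37, 10.4 and 12.9, and Ep300, its paralog, 9.04, 16.7 and 18.5. The CREB coactivator genes Crtc1 and Crtc2, Crem and the kinase gene Rps6ka5 were the other kept ones. The peaks of Crtc2 in LIF and RA replicate 1 held a tract. Atf1, a close relative of Creb1, was gained with 35 and 34.3. Rps6ka1, which encodes RSK1, was gained with 15.5 and 17.8.

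Chromatin genes were kept in many cases too. Of 64 histone lysine methyltransferase and demethylase genes 27 were kept (42.2%) and 20 gained. Kmt5b, which methylates H4K20, had a −log10 p of 12.5, 29.8 and 153, and Setd5 had 16.6, 12.6 and 135. Setd2, which trimethylates H3K36, was strong in LIF and RA replicate 1, with 71.7 and 73.0, and had 20.8 in RA replicate 2, where its summit lay elsewhere, at -252 bp against -768 and -1076 bp. Of 30 polycomb genes 7 were kept and 17 gained (56.7%). Ezh2, the H3K27 methyltransferase, was kept with 9.73, 20 and 51.8, and its partner Eed was gained with 20.6 and 40.7. DNA methylation genes were mostly gained, 9 of 14, with Mbd3 as the kept one. Dnmt1, the maintenance methyltransferase, was gained with 13.7 and 84.9. Of 15 CTCF and cohesin genes 5 were kept and 6 gained, among the latter Ctcf and Smc3.

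Genes for translation, energy supply and protein turnover had kept shares of 26.6% to 33.3%. Of 79 cytosolic ribosomal protein genes 21 were kept and 39 gained. Every one of the 79 had a peak in RA replicate 2, against 49.6% of all genes. Rpl3 had a −log10 p of 19.6, 40.8 and 222, and Rps20 had 19.7, 51.4 and 111. A further 16 of this list had a peak in RA replicate 2 only. Of 78 mitochondrial ribosomal protein genes 26 were kept and 41 gained, of 83 respiratory chain genes 26 and 34, of 55 translation initiation factor genes 17 and 23, and of 48 proteasome genes 15 and 19. Psmc6, an ATPase of the proteasome, was lost, with a LIF −log10 p of 11.3 and a summit 43 bp from the start.

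Of 67 replication-dependent histone genes, 16 were kept and 11 gained, and 6 had a peak in LIF and RA replicate 2 only. Hist1h4d had a −log10 p of 39.8, 30.4 and 85.9 and Hist1h3e 24.5, 25.3 and 96.5. Histone genes are small, lie in clusters and resemble one another, so 1 peak at times counted for 2 genes, as at Hist1h1e and Hist1h2be in LIF with 31.0 each. How reads were split between near-identical copies is uncertain, although multiply mapping reads were dropped. Cell cycle genes were mainly gained, 34 of 62 (54.8%), with 13 kept. Ccnb1 had 29.2, 32.1 and 61.2, Cdk1, its kinase partner, 11.4, 10.4 and 71.0, and the replication helicase gene Mcm4 9.55, 33.3 and 62.8. Aurka, a mitotic kinase, was gained with 25.7 and 21.0.

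Genes of the pluripotency core were mostly gained. Of 15, 8 were gained, 3 kept, 1 lost, 1 in RA replicate 1 only and 2 in no list. Tfcp2l1 was kept with a −log10 p of 16.6, 11.9 and 82.2, and so were the polycomb gene Suz12, with 8.79, 12.5 and 27.9, and Ep300. Myc was lost, with a LIF −log10 p of 10.9 on a tract peak at -58 bp. Gained were Smad1 (14.2 and 36.0), Stat3, the effector of LIF (12.1 and 20.9), Ctcf (11.8 and 19.6) and Sox2 (11.3 and 19.3), besides Klf4 (8.34 and 19) and Esrrb (10.9 and 13.2). No named gained member of this list exceeded 14.2 in RA replicate 1.

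Retinoid genes had no kept member. Of 22, 8 were gained (36.4%), 5 had a peak in RA replicate 1 only, and Rxrg had one in LIF and RA replicate 1. After Cyp26a1, the strongest was Rarb, a retinoic acid receptor gene that retinoic acid induces, with a −log10 p of 24.3 and 54.2. Rdh10, which makes retinal, had 12.6 and 14.2, and Crabp1, a retinoic acid carrier, 11.7 and 21.0. Only Rxrg among the 22 was listed in LIF (4.55%, against 17.0% of all genes), at 7.58 with its summit 25 bp from the start.

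Hox genes, which set position along the body axis, differed between the RA libraries. Of 39, 24 had a peak in RA replicate 1 (61.5%, against 50.7% of all genes), 11 in RA replicate 2 (28.2% against 49.6%) and 3 in LIF (7.69% against 17.0%). Hoxd1 was kept with a −log10 p of 7.75, 14.2 and 17.6, and Hoxd12 and Hoxd13 were in LIF and RA replicate 1. Another 6 were gained (15.4%, against 24.8% of all genes), among them Hoxa2 (20.3 and 25.7), Hoxb9 (14.8 and 16.7) and Hoxa4 (12.6 and 17.5). A further 15 were in RA replicate 1 only. Of 80 other homeobox regulators 4 were kept (5%), namely Gbx2, Meis1, Pbx3 and Pbx4, and 5 gained (6.25%). Another 27 were in RA replicate 1 only. Of 63 Fox and Sox factors 2 were kept (3.17%), Foxj3 and Foxn4, and 14 gained (22.2%).

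Lineage genes were seldom bound in LIF. None of 25 neural lineage genes and none of 16 mesoderm and primitive streak genes had a listed LIF peak, against 17.0% of all genes. Gained were 3 of the 25 (12%) and 2 of the 16 (12.5%), against 24.8% of all genes. Of neural genes 60% had a peak in RA replicate 1 and 16% in RA replicate 2, against 50.7% and 49.6% of all genes. Elavl4, a neuronal RNA-binding protein gene, was gained with a −log10 p of 21.5 and 16.3, the intermediate filament gene Nes with 13.8 and 11.1, and the neuronal tubulin gene Tubb3 with 7.63 and 20.1. A further 12 neural genes were in RA replicate 1 only. In the mesoderm list Mesp2 (14.4 and 13.4) and Kdr (12.3 and 8.28) were gained. Of 60 voltage-gated channel genes 2 were kept (3.33%), 5 were gained (8.33%) and 24 were in RA replicate 1 only (40%). The RA replicates differed in several developmental lists. RA replicate 1 alone held 33.8% of other homeobox regulators, 38.5% of Hox genes and 48.0% of neural genes, against 10.1% of all genes.

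The 4 lists of signalling genes had kept and gained members and no lost one, where 0.305% of all genes were lost. Of 42 genes for FGF ligands, receptors and feedback factors 6 were kept (14.3%, against 14.7% of all genes) and 12 gained (28.6% against 24.8%). Fgfr1 itself was kept, with a −log10 p of 6.12 in LIF, 8.53 in RA replicate 1 and 69.3 in RA replicate 2 and its summit within 39 bp of the start in each. Fgf4, the FGF that ESCs make, was kept with 12.9, 14 and 48.7, and so were the FGF target genes Etv4, Etv5 and Spry4. The Etv4 peak held a tract in each list. Of 60 Wnt genes 6 were kept (10%) and 17 gained (28.3%). Ctnnb1, which encodes β-catenin, had 16.0, 18.4 and 109.8, and Apc, which targets it for destruction, 16.2, 12.6 and 38.6. Of 21 Notch genes Maml1 was kept (4.76%) and 9 were gained (42.9%), led by the ligand gene Dll1 (16.7 and 51.8) and Notch1 (16.5 and 22.3). Of 26 BMP, Smad and Id genes 3 were kept (11.5%) and 10 gained (38.5%). Smad2 (10.2, 16.8 and 26.7) was among the kept and Smad4 (24.1 and 44.6) was the strongest gained. The kept Bmp8b peak rested on a tract in LIF and in RA replicate 1, at 82.8 and 28.3.

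Immediate early genes, which respond to signals without new protein synthesis, had 2 kept and 8 gained of 18. Jund (12.6, 14.6 and 97.1) and Ier2 (11.6, 32.4 and 78.2) were kept, while Jun (15.1 and 50.8) and Junb (13.7 and 67.2) were gained. Egr2 had a LIF peak of 17.8 and an RA replicate 1 peak of 14.9, both on a tract at -985 and -984 bp, and none in RA replicate 2.

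Of 365 numbered Zfp genes, mostly zinc finger repressors, 58 were kept (15.9%, against 14.7% of all genes) and 118 gained (32.3% against 24.8%). A further 73 were in RA replicate 2 only, 20% against 9.37% of all genes. Receptor, keratin and protocadherin families were nearly empty. Of 1420 olfactory and vomeronasal receptor genes 0 were kept, 2 gained and 3 lost, and 1394 had no listed peak. All 3 lost ones held a tract, as did 3 of the 5 that were in LIF and RA replicate 1. Of 169 keratin and defensin genes 140 and of 57 clustered protocadherin genes 50 had no listed peak.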

How the data were processed

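The authors aligned reads to mm10 with Bowtie 1.0, dropped multiply mapping reads, and ran MACS2 on 1 library at a time. Their command names no control library. The deposited fold is a ratio, fragments piled up at a summit over the local background. The deposited −log10 p and −log10 q belong to the summit, and the deposited score, a scaled −log10 p, was not used here. Each fold and −log10 p was solved for whole fragments at the summit, within 0.002 or a relative 1e-04 of the deposited −log10 p, for 100% of peaks in each list. The lowest background in a list over its smallest peak width gave fragments per kb.

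Peaks were matched by 1 bp. The reference was GRCm38 (the same assembly as mm10) with GENCODE M21, 21951 protein-coding genes and 141767 transcripts, while the study used another gene set. The value of a gene is its strongest promoter peak by −log10 p. Shares carry exact Clopper-Pearson intervals at 95%, and genes that share a peak are not independent. With 1 LIF library no p-value was computed. The class, overlap and fragment steps were tested on simulated data. The 3 libraries, the 30 gene lists and the alternatives were chosen with earlier results of these data known. Genes were named by rule: in each class the 6 with the highest lowest −log10 p over the lists that define it (lost genes apart with and without a tract), list members with a LIF peak, up to 4 gained members per list, and genes the study discussed. Python 3.11.15, numpy, scipy and matplotlib were used.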

Additional observations from a re-analysis of the deposited data

How the results depend on the processing

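The results were recomputed under 14 alternatives. No summary value changed sign, although kept genes outnumbered gained ones with equal numbers of peaks. The kept share of a list minus that of all genes changed sign, within its counting interval, for 3 lists. It went from 5.3 points to -1.31 (−log10 p of at least 10) and -1.91 (equal numbers) for the pluripotency core, from 1.19 to -0.0805 (equal numbers) for numbered Zfp genes, and from -3.59 to 3.14 (−log10 p of at least 10) and 0.768 (without RA replicate 2) for immediate early genes. No paired analysis was possible because LIF had 1 library. The −log10 q limit of 2 changed nothing, since the lowest listed value was 2.24. Of 111 recomputed summary values 89 stayed within the spread (1.5 times for counts) and 22 did not. Some of the 89 were fixed in advance. The −log10 q limit removed no FGFR1 peak. For the mean share of LIF peaks or LIF genes found in RA, the spread was the SD of the 2 RA libraries. Leaving out either library could not move such a mean by more than that SD. For LIF peaks the SD was 22.3 points around 43.3%, so values from 27.5% to 61.2% counted as within it. With a −log10 p of at least 10, LIF peaks found in both RA lists went from 23.4% to 18.1%, kept genes from 3226 to 1750, and LIF genes bound in RA (mean of 2 libraries) from 92.3% to 88.9%. With the strongest 11378 peaks of each list the same values were 13.3%, 1882 and 70.9%, with 1617 gained and 325 lost genes, a gap between kept and gained genes of 1.42 percentage points for summits within 100 bp of the start, and one of 11.4 in place of 17.1 for RXR in LIF. The share in both lists was 47.4% without tract peaks, 21.3% with 50% of the shorter peak and 16.3% with summits within 100 bp. Leaving out either RA library gave 27.5% and 59.0% for LIF peaks found in every list used, 241 to 331 lost genes, 1.46 to 9.70 points for the summits, 21.6 to 25.1 for RXR and -32.7 to -13.8 for lost against kept LIF summits (main value -28.3). The cause of these shifts was not tested, apart from fewer peaks or lists by construction. Of 270 values for single gene lists 256 stayed within their interval. How the inferred depth of the LIF library limits the lost and gained counts was not tested.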
